A study of Mus musculus with 8 samples.

Results

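Ovary development between embryonic day 12.5 (E12.5) and E14.5 was followed in the XX gonads of 2 genotypes, wild type (WT) and Wnt4 knock-out (KO). These were 4 of the 8 samples in the series, 1 array for each genotype and stage, and the other 4 were XY gonads of the same genotypes and stages. The WT embryos are labelled wild type with no further allele, the KO embryos carried a knock-out of Wnt4, and the labels name no treatment. Whole dissected gonads were used. The labels give neither the strain, the number of gonads in a sample, a batch, nor how the Wnt4 allele was made, so stage and any batch that went with it cannot be told apart. Expression was read on Affymetrix MG_U74Av2 arrays, on which a gene is represented by 1 or more probe sets. Values are log2 signals, so a difference of 1 is a 2-fold change.

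The fetal ovary holds germ cells and several kinds of somatic cell. In the interval studied, female germ cells leave the mitotic cycle and their programme of pluripotency, and start meiosis under retinoic acid and BMP signals, with STRA8 as a gatekeeper. WNT4 is a secreted signal of the supporting cells of the ovary, which represses steroid-producing cells and blood vessel growth of the testis type. Because whole gonads were measured, a lower value can mean fewer cells of a type or less RNA per cell, and these cannot be told apart.

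The 4 genes that mark female germ cells here, Stra8, Stag3, Figla and Ddx4, were higher at E14.5 than at E12.5 in both genotypes. The 250 bases before the annotated start of each, from RefSeq on GRCm38.p6, are shown because these genes moved together, with 3 short motifs in capitals. The motifs were searched on both strands: TCCCGC, the core of E2F sites, CACGTG, the E-box of MAX-type factors, and CANNTG, the general E-box bound by FIGLA-type factors, of which CACGTG is a special case. The Stra8 window is chr6:34920698-34920947 on the plus strand, and none of the 3 motifs is in these letters. The Stag3 window is chr5:138280259-138280508 on the plus strand, with CACGTG. The Figla window is chr6:86016941-86017190 on the plus strand, with CANNTG at 2 places. The Ddx4 window is chr13:112652311-112652560 on the minus strand, with TCCCGC (printed as its reverse complement) and CACGTG.
Stra8: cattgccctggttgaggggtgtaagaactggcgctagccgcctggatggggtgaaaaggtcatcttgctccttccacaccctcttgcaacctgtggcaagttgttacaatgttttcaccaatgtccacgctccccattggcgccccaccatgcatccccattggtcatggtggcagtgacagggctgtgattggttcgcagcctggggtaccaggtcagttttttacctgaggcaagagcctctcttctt
Stag3: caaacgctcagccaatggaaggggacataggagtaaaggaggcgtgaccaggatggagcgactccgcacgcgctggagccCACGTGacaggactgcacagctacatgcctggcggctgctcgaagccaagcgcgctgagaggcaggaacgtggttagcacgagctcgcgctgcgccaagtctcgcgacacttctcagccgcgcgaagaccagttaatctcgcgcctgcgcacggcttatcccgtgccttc
Figla: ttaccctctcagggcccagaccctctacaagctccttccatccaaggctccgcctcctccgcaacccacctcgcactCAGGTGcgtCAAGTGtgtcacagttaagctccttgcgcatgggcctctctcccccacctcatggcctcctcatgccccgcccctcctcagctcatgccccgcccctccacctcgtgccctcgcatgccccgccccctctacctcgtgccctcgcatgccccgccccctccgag
Ddx4: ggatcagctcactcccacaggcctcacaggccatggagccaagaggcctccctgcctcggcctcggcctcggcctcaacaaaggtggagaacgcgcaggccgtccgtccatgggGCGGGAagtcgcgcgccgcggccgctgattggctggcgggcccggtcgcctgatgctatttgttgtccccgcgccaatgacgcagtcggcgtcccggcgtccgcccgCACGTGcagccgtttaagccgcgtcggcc

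Among the 12 genes of the germ cell and meiosis lists that rose, a set chosen by its call, TCCCGC was found before 7 (58.33%), CACGTG before 4 (33.33%) and CANNTG before 9 (75.0%). Of the genes at least 2-fold higher at E14.5 in both genotypes, 18 had a window, and the shares were 33.33%, 16.67% and 61.11%. For the 9 genes with a window that were at least 2-fold lower in both, they were 44.44%, 11.11% and 44.44%. The same letters were found before 34.56%, 10.65% and 61.2% of the 4856 genes measured in XX gonads that have a window in the table, and before 18.81%, 6.86% and 69.3% of all 27025 genes in it. A direct repeat read by retinoic acid receptors (AGGTCA, 5 free bases, AGGTCA) was found before 0 of the 12 and before 3 of the 27025. These counts describe letters in a window and say nothing of binding.

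The 4 XX arrays were similar in most quality measures but not in RNA integrity or in every label check. On the 4 XX arrays, 59.8% to 60.5% of probe sets lay above a floor of 7.06 set at the 40th percentile of all values, and the arrays correlated at 0.983 to 0.997 across probe sets. The mean of 9 spiked-in bacterial control sets was 8.92 and 8.90 at E12.5 in WT and KO and 8.95 and 9.12 at E14.5, while the difference between the 3′ and 5′ probe sets of actin, a sign of RNA integrity, was 0.48 and 0.49 at E12.5 and 0.77 and 0.55 at E14.5. The same difference for Gapdh was 0.05 and -0.00 at E12.5 and 0.30 and 0.13 at E14.5. Both were larger at E14.5 in both genotypes, so RNA integrity and stage cannot be told apart. The array labelled WT XX E14.5 read the Y-linked gene Eif2s3y at 7.70, against 5.43, 6.11 and 4.93 on the other XX arrays 7.84 and 8.19 on the WT and KO XY arrays at E12.5, and 7.61 and 6.98, the last under the floor, on those at E14.5. It read Xist, the X-inactivation RNA, at 7.17, against 7.76 to 8.20 on the other XX arrays and 4.14 to 4.51 on the XY arrays at E12.5. Uty and Kdm5d, 2 other Y-linked genes with a probe set, were under the floor on every array, and Sry was under it on all 4 XX arrays. The Y-linked signal rests on 1 probe set, of a type that the maker marks as shared within a gene family. The KO pair does not use this array, and its values stand beside those of the WT pair for the genes described in full, while an effect given as a single number is the fit over both pairs and uses it. Wnt4 itself read 10.26 and 9.52 in WT at E12.5 and E14.5 and 8.66 and 8.39 in KO, lower in KO at both stages. The sources used here do not say where its probe set lies relative to the deleted part.

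The stage effect was tested with limma over both genotypes as repeats, with Benjamini-Hochberg adjustment over 7886 probe sets. Of these, 602 (7.63%) rose and 1188 (15.1%) fell at an adjusted p under 0.05, and their median size was 0.41. All 1790 had the same sign in both pairs, and 65 changed at least 2-fold. The median over all measured probe sets was -0.04. The share of calls that rose was 33.6% after centring each array on its median, 47.7% after quantile normalization (951 rose and 1041 fell) and 5.33% without centring (283 rose and 5023 fell), where the median of all probe sets was -0.27. The test had 1 residual degree of freedom among 4 arrays. In a fit to all 8 arrays, leaving out any 1 XX array ended every call. That fit takes the stage effect from 1 pair and its error from the XY arrays alone. It therefore cannot show how far the calls depend on either pair. The calls below use both pairs, and the WT and KO values beside them show how far the pairs agree. Values under the floor were set to it, and a difference from a floored array is a lower bound. Where both arrays of 1 stage were under the floor, they took the same value, so the adjusted p depends on the floor. A gene above the floor at only 1 stage entered the fit through the stage where it is high, so counts of measured list members describe those members alone. Each such count stands beside the 7.63% of all probe sets that rose and the 15.1% that fell, and no list was tested against these shares.

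**Figure D1:**
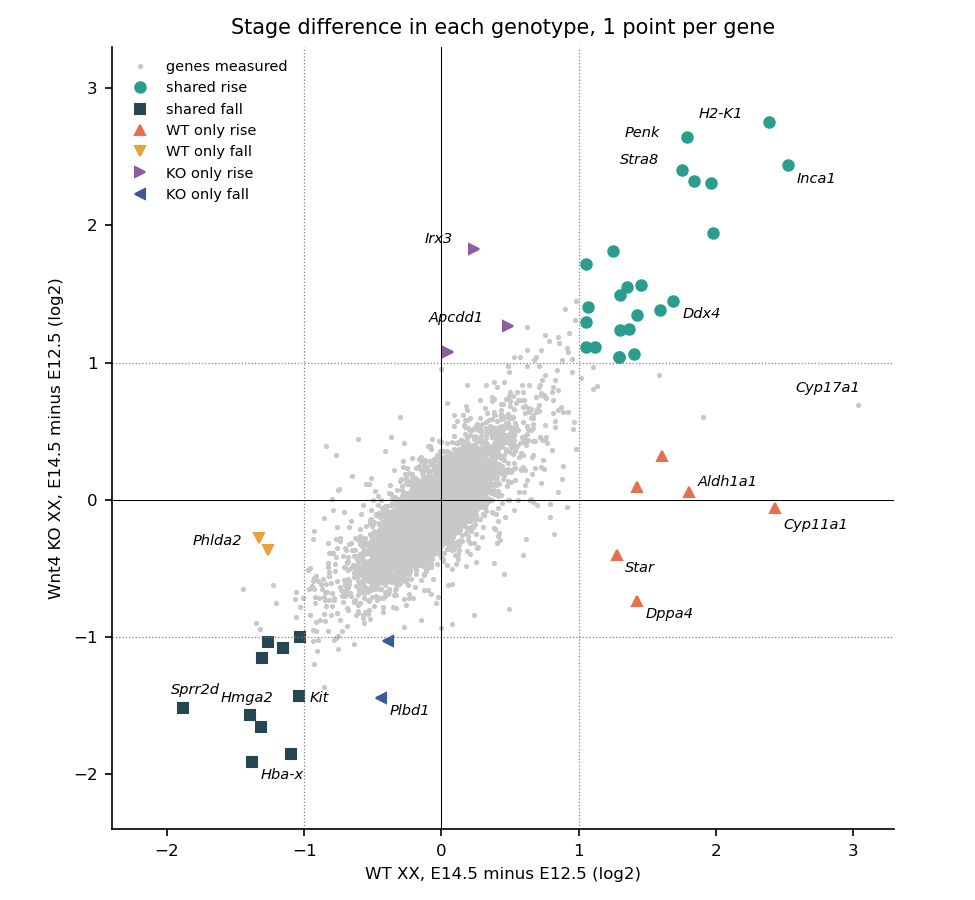
Stage difference (E14.5 minus E12.5, log2) of each gene in WT XX gonads (horizontal axis) and in Wnt4 KO XX gonads (vertical axis), 1 point per gene, with dotted lines at a 2-fold change. The 24 genes of the shared rise class, among them Inca1, H2-K1, Stra8 and Ddx4, sit at the upper right, the 10 of the shared fall class at the lower left, and Cyp11a1, Aldh1a1, Star and Dppa4 to the right near or under 0 in the KO pair.

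A probe set was counted as a shared rise where both pairs differed by at least 1, and 32 probe sets (0.406%) met this. They stood for 24 genes, with 2 sets of H2-D1 and Col6a1 that are not the set used elsewhere for the gene, and 6 sets that match several genes or none. The 10 shared falls (0.127%) stood for 10 genes. Since the joint test uses the same 2 differences, passing it is no further support for these classes. Differences of at least 1 in WT with under 0.5 in that direction in KO were fewer: 7 upward (0.0888%) and 7 downward (0.0888%). The converse, at least 1 in KO with under 0.5 in WT, held for 4 upward (0.0507%) and 2 downward (0.0254%). A further 36 upward (0.457%) and 31 downward (0.393%) were partly shared, with at least 1 in one genotype and 0.5 to 1 in the other. These classes have no test, since each genotype had 1 array per stage. Taken pair by pair, 48 probe sets were at least 2-fold higher at E14.5 in WT (0.609%) and 38 lower (0.482%), against 63 higher (0.799%) and 22 lower (0.279%) in KO.

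Germ cell genes of meiosis were among the shared rises. Stra8, the gatekeeper of meiotic entry, read 5.68 and 8.81 in WT at E12.5 and E14.5 and 5.29 and 9.46 in KO. Both E12.5 arrays were under the floor, so Stra8 was at least 3.38-fold higher at E14.5 in WT and at least 5.29-fold in KO (stage effect 2.08 ± 0.17, SE, n = 2 pairs, adjusted p = 0.0174, a value that depends on the floor). Without a floor the effect was 3.65 ± 0.25. Both E14.5 arrays lay far above both E12.5 arrays.

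Ddx4, a germ cell RNA helicase, read 8.16 and 9.84 in WT and 8.29 and 9.74 in KO. All 4 values were above the floor, and the effect was 1.57 ± 0.08 (adjusted p = 0.0151). Stag3, a subunit of meiotic cohesin, went from 7.81 to 9.23 in WT and from 7.94 to 9.28 in KO, an effect of 1.39 ± 0.07 (adjusted p = 0.0128). The groups by stage did not overlap for either gene, which is no support beyond the test on the same 4 values. The genotypes lay close at each stage.

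Figla, a transcription factor of the oocyte that later drives zona pellucida genes, read 4.89 at E12.5 in both genotypes and 7.86 and 7.84 at E14.5. Its E12.5 values were under the floor and set to it, which held the fitted effect to 0.80 ± 0.06 (adjusted p = 0.0174, which depends on the floor). With no floor it was 2.96 ± 0.12. With the floor its pair differences, 0.81 and 0.78, lay just under the 2-fold line of the shared rise class. Other oocyte genes had not moved this way: of 11 measured on the oocyte list, 1 rose (Figla) and 1 fell (Kit), beside 7.63% and 15.1% of all probe sets. The list median was 0.10 against -0.04 over all probe sets. Nobox, Lhx8, Zp1, Zp3 and Bmp15 were under the floor on all 4 XX arrays. Gdf9, an oocyte growth factor, went from 7.80 to 8.09 in WT and from 7.91 to 8.09 in KO and did not pass (adjusted p = 0.0782).

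The stage effects of these 4 markers were set against those of XY gonads in a fit to all 8 arrays. Stra8 read 5.12 and 5.77 in WT XY gonads at E12.5 and E14.5 and 5.13 and 7.51 in KO XY gonads, and its effect was 1.85 higher in XX than in XY gonads (adjusted p = 0.00181), a value that depends on the floor, since 7.51 was its only XY value above it. The XX effect was higher by 0.94 for Stag3 and 0.63 for Ddx4 (adjusted p = 0.000708 and 0.00488). Figla was at the floor on all XY arrays and both XX arrays of E12.5, so no test of its difference is given. However, 36.0% of all probe sets passed in that direction and 31.6% in the other, so a pass is common in this comparison. The XY arrays at E14.5 correlated at only 0.883 to 0.907 with the XX arrays and 0.894 to 0.906 with the XY arrays at E12.5. The XY arrays at E12.5 correlated with the XX arrays at 0.979 to 0.990. The XY arrays at E14.5 thus stood apart from the other arrays of both sexes. In these tests a difference between arrays cannot be told apart from the XY stage effect.

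Of the synaptonemal complex, which holds paired chromosomes together, 3 of 11 listed genes were measured, and Syce2 and Sycp1 entered only through the E14.5 arrays, since both were under the floor at E12.5. Sycp3, of the chromosome axis, was under the floor on all 4 XX arrays. Syce2, a protein of its central element, read 6.97 and 8.35 in WT and 6.87 and 8.10 in KO, and rose by 1.17 ± 0.09 (adjusted p = 0.0174). Sycp1, which forms the transverse filaments, was at 3.51 and 3.26 at E12.5 and 7.38 and 7.46 at E14.5. It was lifted just over the floor, so its fitted effect was 0.37 ± 0.05 (adjusted p = 0.0237), against 4.04 ± 0.22 with no floor. The adjusted p of Syce2 and that of Sycp1 depend on the floor, to which both E12.5 values of each gene were set. Trip13, a remodeller of the chromosome axis, did not pass (8.97 and 8.79 in WT, 8.86 and 8.65 in KO).

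The general subunits of cohesin did not follow Stag3: of 7 measured cohesin genes 1 rose (Stag3) and 0 fell, and Rad21, the mitotic partner subunit, read 11.10 and 10.92 in WT and 11.07 and 10.65 in KO (adjusted p = 0.0567). Of 10 measured recombination genes 2 rose and 1 fell. Over all probe sets 7.63% rose and 15.1% fell. Brca2, which loads strand-exchange proteins on broken DNA, rose by 0.75 ± 0.07 (8.35 and 9.08 in WT, 8.29 and 9.07 in KO, adjusted p = 0.0174). Msh5, a meiotic crossover factor, rose from under the floor (6.57 and 6.47) to 7.31 in both genotypes (fitted effect 0.26, adjusted p = 0.0356, which depends on the floor). Rpa1, a single-strand binding protein, fell by 0.37 (adjusted p = 0.0307).

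General germ cell genes mostly rose too. Of 6 measured, 4 rose (Ddx4, Dazl, Tex19.1 and Hells) and 1 fell (Kit), beside 7.63% and 15.1% of all probe sets. Dppa3 did not pass (9.71 and 10.69 in WT, 10.12 and 10.48 in KO, adjusted p = 0.0514). Dazl, an RNA-binding protein needed for germ cells to answer the meiotic signal, went from 9.68 to 10.25 in WT and from 9.62 to 10.67 in KO, an effect of 0.81 ± 0.13 (adjusted p = 0.0265). Hells, a chromatin remodeller, went from 8.83 to 9.41 and from 8.70 to 9.43, and Tex19.1, a guard against transposons, from 8.51 to 8.97 and from 8.36 to 9.22. In each of these 3 genes the KO pair differed by more than the WT pair, a difference that 1 array per group does not allow to be tested.

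**Figure D2:**
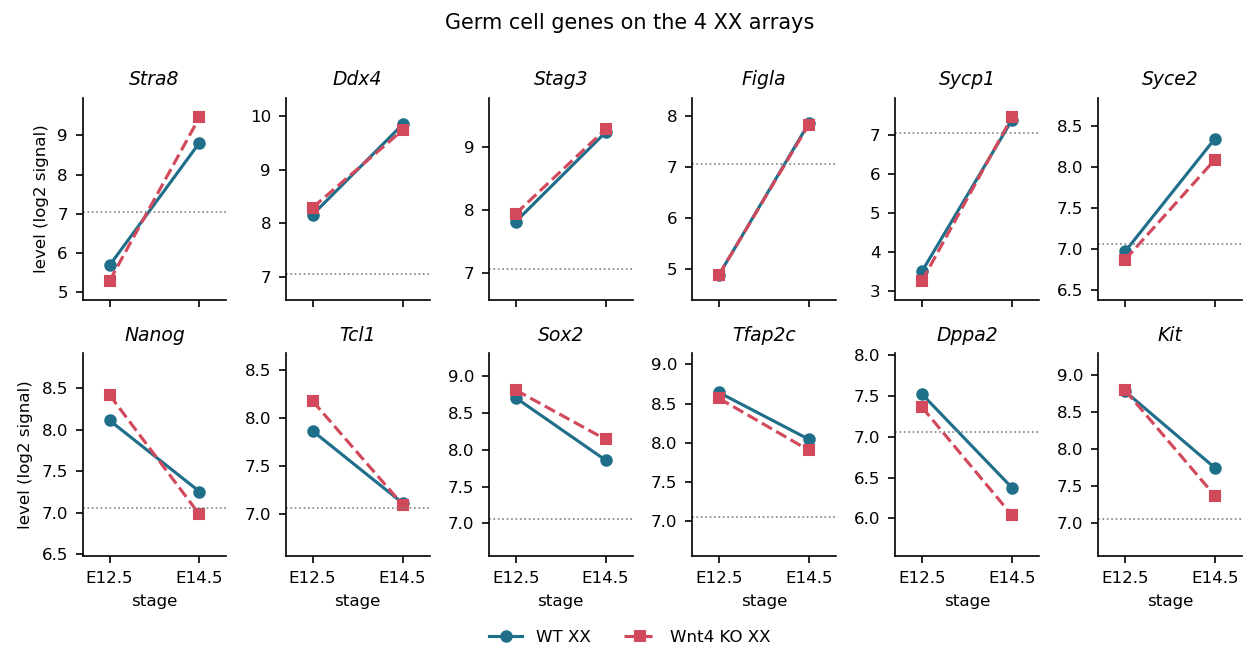
Levels (log2 signal, each array centred on its median) of 12 germ cell genes at E12.5 and E14.5 in WT XX (circles, solid) and Wnt4 KO XX (squares, dashed) gonads, 1 array per point, with the floor of 7.06 dotted and a separate vertical scale for each gene. The upper row (Stra8 to Syce2) goes up in both genotypes and the lower row (Nanog to Kit) goes down in both.

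Several genes of germ cell pluripotency fell. Of 14 measured, 0 rose and 5 fell, beside 7.63% and 15.1% of all probe sets. The list median was -0.33, with -0.49 in the KO pair and -0.12 in the WT pair. After quantile normalization 2 rose and 5 fell, and without centring 0 rose and 10 fell. Nanog, a core pluripotency factor, fell from 8.11 to 7.26 in WT and from 8.42 to 6.98, under the floor, in KO, an effect of -1.11 ± 0.14 (adjusted p = 0.02). Tcl1, a co-activator of AKT, fell from 7.86 to 7.11 and from 8.18 to 7.09 (-0.92 ± 0.10, adjusted p = 0.0184). Sox2 fell from 8.71 to 7.86 and from 8.81 to 8.14 (-0.76 ± 0.08), and Tfap2c, a factor of primordial germ cell fate, from 8.64 to 8.05 and from 8.57 to 7.91 (-0.63 ± 0.07). Dppa2 fell from 7.52 and 7.36 to values under the floor. Stage separated the arrays for all 5 genes, but these were picked by the stage test on the same arrays, so the separation is no further support.

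Not every member did so. Pou5f1, the germline octamer factor, read 8.96 and 8.85 in WT and 8.97 and 8.78 in KO and did not pass (adjusted p = 0.169), and Sall4 did not pass either (adjusted p = 0.0875). Utf1 read 10.01 and 10.09 in WT but 10.02 and 9.12 in KO, and Dppa4 8.98 and 10.41 in WT but 9.13 and 8.39 in KO. For Utf1 the KO array at E14.5 was the low one, and for Dppa4 the WT array at E14.5 was the high one. The XY arrays at E12.5 read Utf1 at 10.33 and 10.30 and Dppa4 at 9.31 and 9.35. Kit, the receptor that primordial germ cells use for survival and migration, fell from 8.78 to 7.75 in WT and from 8.80 to 7.37 in KO (-1.23 ± 0.12, adjusted p = 0.0174), while its ligand Kitl did not pass (pair differences -0.00 and -0.16).

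Other genes of the shared rise class were on none of the germ cell lists. Inca1, an inhibitor of cyclin A1-bound kinase, had one of the largest effects: 7.59 and 10.12 in WT and 7.65 and 10.09 in KO, 2.49 ± 0.07 (adjusted p = 0.0125). Spata5, an AAA ATPase of ribosome assembly first described in sperm development, went from 7.30 to 9.28 and from 7.11 to 9.06 (1.96 ± 0.07), and Ube2t, the ubiquitin-conjugating enzyme of the Fanconi anaemia pathway, from 7.77 to 9.07 and from 7.61 to 9.11 (1.40 ± 0.08). The 2 pairs of each gene lay close together. Fmr1nb and Xlr4a, both X-linked, were under the floor at E12.5 and above it at E14.5 in both genotypes, Xlr4a at 4.57 and 8.11 in WT and 4.50 and 8.78 in KO. Xlr4a belongs to a family of near-identical copies, so its signal may come from several of them. Nfix, a nuclear factor I transcription factor, rose by 2.08 ± 0.13 (7.31 and 9.15, 7.27 and 9.59), and Penk, the enkephalin precursor, by 2.22 ± 0.21 (8.85 and 10.65, 8.53 and 11.18), although a second Penk probe set gave 0.24. Cited1, Gatm and Macrod2, named here only to complete the class, rose by 1.23, 1.17 and 1.24.

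Many cell division genes were lower at E14.5. Of 30 measured on the mitotic list, 1 rose and 12 fell, beside 7.63% and 15.1% of all probe sets. The list median was -0.20 (-0.15 in WT, -0.24 in KO) against -0.04 over all probe sets. After quantile normalization 1 rose and 10 fell, and without centring 1 rose and 25 fell. Plk1, a mitotic kinase, fell from 10.03 to 9.27 in WT and from 10.04 to 9.21 in KO (-0.79 ± 0.06, adjusted p = 0.0174). The helicase subunits Mcm7, Mcm2 and Mcm4 fell by 0.58, 0.55 and 0.47, the licensing factor Cdc6 by 0.57, and the nucleotide-making subunits Rrm2 and Rrm1 by 0.56 and 0.29. Bub1, a spindle checkpoint kinase, was the exception: it rose by 0.76 ± 0.06 (8.76 and 9.51, 8.75 and 9.52, adjusted p = 0.0174). Of 6 cell cycle inhibitors 2 rose and 1 fell, and Cdkn2c, an inhibitor of CDK4 and CDK6, rose from just under the floor (6.96 and 7.01) to 7.65 and 7.73, while Cdkn1c fell by 0.34.

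Several chromatin and early-embryo growth genes fell with them. Hmga2, an architectural chromatin protein of embryonic cells, fell from 11.87 to 10.48 in WT and from 11.61 to 10.04 in KO (-1.48 ± 0.07, adjusted p = 0.0128). Igf2bp1, a fetal RNA-binding protein, fell from 10.04 to 8.71 and from 9.93 to 8.99 (-1.13 ± 0.11). Of 16 measured chromatin genes 2 rose and 7 fell, including Ezh2 (-0.51), Dnmt1 (-0.33, though a second probe set gave 0.03 and the mean of both did not pass, adjusted p = 0.156) and Dnmt3a (-0.63). Among 20 measured growth-factor and imprinted genes 2 rose and 7 fell. Over all probe sets 7.63% rose and 15.1% fell. Nnat fell from 11.65 to 10.62 and from 11.30 to 10.30, and its differences sat just inside the shared fall class. Grb10, a growth-restraining adaptor, fell from 10.16 to 8.71 in WT and from 10.09 to 9.44 in KO, and Dlk1 rose from 11.92 to 12.29 and from 11.68 to 12.40.

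Of genes of sugar use and low oxygen, 7 of 15 fell and 0 rose (median -0.25): Vegfa, the vessel growth factor, went from 7.97 and 7.81 to under the floor at 6.40 and 6.86, hexokinase Hk2 fell by 0.62, and the glucose carrier Slc2a1 by 0.43. Under quantile normalization 6 fell and without centring 13. The shares over all probe sets in the main fit were 15.1% that fell and 7.63% that rose. Of 14 measured genes of cholesterol synthesis 3 rose (Msmo1 by 0.70, Idi1 by 0.49 and Nsdhl by 0.40, which did not pass without centring, adjusted p = 0.126) and 0 fell, with a median of 0.11 that turned to -0.14 without centring.

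Signals thought to act at meiotic entry were mixed. Of 11 measured retinoic acid genes 1 rose and 3 fell. Over all probe sets 7.63% rose and 15.1% fell. The receptor Rarg rose by 0.33 (7.32 and 7.64, 7.22 and 7.55, adjusted p = 0.0293), but not without centring (adjusted p = 0.344). Aldh1a2, which makes retinoic acid, fell from 9.77 to 8.85 in WT and from 9.40 to 8.75 in KO (-0.79 ± 0.09, adjusted p = 0.0189). The binding proteins Crabp1 and Crabp2 fell by 1.06 and 0.57. Of 30 activin, BMP and TGF-beta genes 3 rose and 9 fell. The readouts of BMP signalling Id3, Id1 and Id2 fell by 0.69, 0.57 and 0.29 and the inhibitory Smad7 and Smad6 by 0.52 and 0.37, while the ligand subunit Inhba rose from 7.40 to 8.02 in WT and from 7.22 to 8.48 in KO (0.94 ± 0.17, adjusted p = 0.0311). Bmp4 did not pass (-0.25, adjusted p = 0.0614).

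Most stromal matrix genes rose in both genotypes. Of 20 measured, 13 rose and 0 fell, beside 7.63% and 15.1% of all probe sets. The list median was 0.45 (0.37 in WT and 0.47 in KO), and 13 rose also after quantile normalization. Without centring 9 rose and 2 fell, and Mfap2, which rose by 0.25, was then at -0.00. Lum and Dcn, small proteoglycans of collagen fibres, went from 9.74 to 11.19 and from 11.05 to 12.11 in WT and from 9.81 to 11.38 and from 10.98 to 12.28 in KO. Their effects were 1.51 ± 0.06 (adjusted p = 0.0125) and 1.17 ± 0.08 (adjusted p = 0.0174). Ogn, of the same family, rose by 1.45 ± 0.08 (7.05 and 8.41, 7.06 and 8.61), with 0.45 on a second probe set. Eln, the elastic fibre protein, rose by 1.31 ± 0.06 (9.08 and 10.45, 9.39 and 10.63), and Col6a2 and Col6a1 by 1.12 and 0.94. The contractile genes Tagln (7.79 and 9.38, 7.96 and 9.34) and Acta2 (7.96 and 9.55, 8.55 and 9.46) rose by 1.49 ± 0.08 and 1.25 ± 0.18, and 3 of 7 smooth muscle genes rose in all, with a list median of 0.20 that turned to -0.06 without centring.

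Class I genes of the major histocompatibility complex, which present peptides on the cell surface, were among the largest rises. H2-K1 read 8.11 and 10.51 in WT and 8.20 and 10.95 in KO, an effect of 2.57 ± 0.11 (adjusted p = 0.0125), although its 3 probe sets spanned 0.03 to 2.57. H2-D1 read 7.95 and 9.92 and 8.04 and 10.35, an effect of 2.14 ± 0.10 (adjusted p = 0.0128), with 1.53 on a second set. Their light chain B2m rose by 0.32 (10.34 and 10.73, 10.35 and 10.59), but not without centring (adjusted p = 0.40). Of 14 measured H2 genes of class I type, a group gathered after these values were seen, 8 rose and 0 fell, beside 7.63% and 15.1% of all probe sets. However, 8 of the 14 were read by probe sets that the maker marks as shared within a gene family, so single members are uncertain. The sets used for H2-K1 and H2-D1 are both of this type. Of the 6 measured genes on the wider list of class I and interferon genes 3 rose (H2-K1, H2-D1 and B2m), and Isg15, an interferon target, did not pass (adjusted p = 0.0651).

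The windows of 250 bases before the starts of H2-K1 (the one of its 2 listed starts used here) and H2-D1 are shown because both signals rose and the windows share a long run of letters. Both genes were read by probe sets shared within a gene family, and how far the 2 signals are separate was not tested. They lie at chr17:34000348-34000597 on the minus strand and chr17:35262844-35263093 on the plus strand (RefSeq, GRCm38.p6). Capitals mark the longest run of bases that both windows share, 47 bases, found by comparing the windows after the values were seen.
H2-K1: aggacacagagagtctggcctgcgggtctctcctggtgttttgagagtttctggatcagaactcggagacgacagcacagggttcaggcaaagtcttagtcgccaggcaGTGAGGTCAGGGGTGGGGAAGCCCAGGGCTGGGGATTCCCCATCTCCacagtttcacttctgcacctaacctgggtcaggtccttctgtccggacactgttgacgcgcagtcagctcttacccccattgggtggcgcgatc
H2-D1: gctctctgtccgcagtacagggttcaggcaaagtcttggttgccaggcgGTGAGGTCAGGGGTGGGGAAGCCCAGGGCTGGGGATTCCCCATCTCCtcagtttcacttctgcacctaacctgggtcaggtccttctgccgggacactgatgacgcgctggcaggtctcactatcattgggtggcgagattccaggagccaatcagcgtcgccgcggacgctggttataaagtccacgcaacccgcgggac

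No other gene of the 27025 in the table holds this run on either strand, so 2 genes hold it (0.0074%).

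Globin genes of red cells moved in opposite directions, embryonic chains down and later chains up. Of 11 measured erythroid genes 3 rose and 4 fell, beside 7.63% and 15.1% of all probe sets. The embryonic chain Hba-x fell from 13.15 to 11.77 in WT and from 13.08 to 11.17 in KO (-1.65 ± 0.14, adjusted p = 0.0174), and Hbb-y and Hbb-bh1 fell by 0.52 and 0.41. The later chains Hbb-b2 (11.62 and 12.92, 11.40 and 12.64) and Hba-a1 (13.64 and 14.10, 13.60 and 13.88) rose by 1.27 ± 0.05 and 0.37 ± 0.06. Globin copies are close in sequence. The other red cell genes were mixed, Alas2 rising by 0.74 and Slc4a1 falling by 0.37. Of 12 macrophage genes 3 rose (Ctss by 1.08, C1qa by 0.67 and Tyrobp by 0.41, the last not without centring, adjusted p = 0.107) and 0 fell, with a median of 0.12 that turned to -0.11 without centring.

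**Figure D3:**
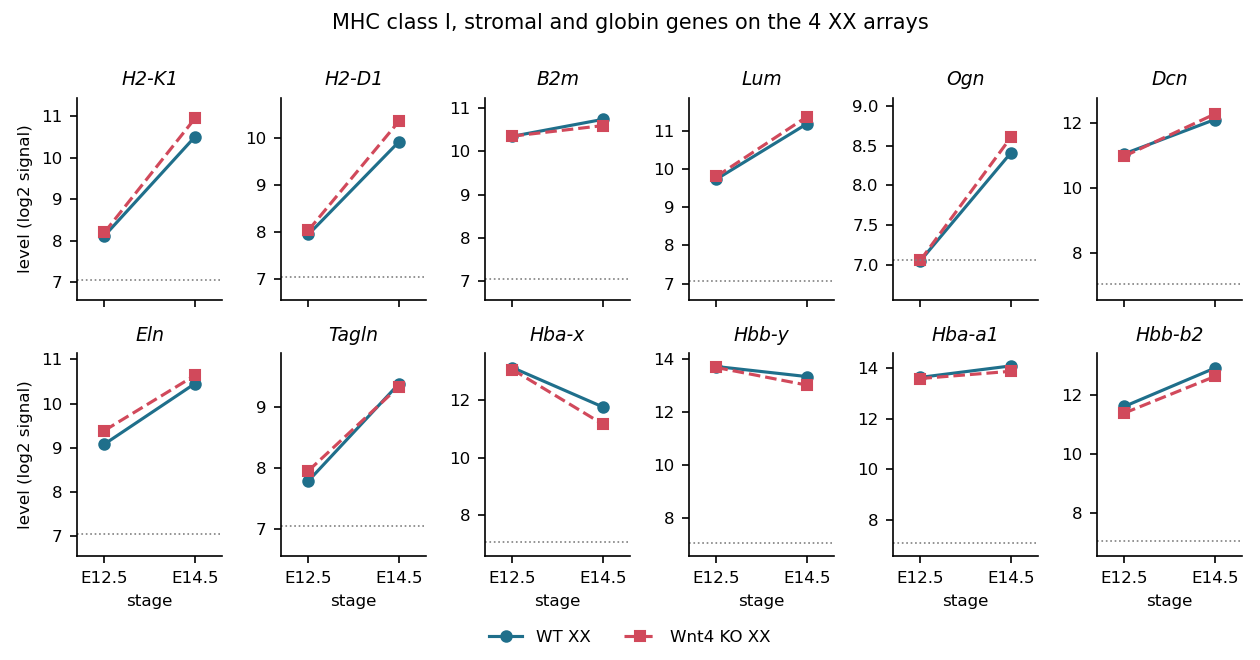
Levels (log2 signal) of 12 genes of MHC class I, stroma and red cells at E12.5 and E14.5 in WT XX (circles, solid) and Wnt4 KO XX (squares, dashed) gonads, 1 array per point, with the floor of 7.06 dotted and a separate vertical scale for each gene. Hba-x and Hbb-y go down while Hba-a1 and Hbb-b2 go up, and the 2 genotypes run nearly together.

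Some genes of the surface layer and of the neighbouring mesonephros fell, beside 15.1% of all probe sets that fell and 7.63% that rose. Of 8 measured coelomic epithelium genes 3 fell (Aldh1a2, Lhx9 by 0.70 and Wt1 by 0.66) and 0 rose. Of 11 mesonephros and duct genes 4 fell (Cldn7 by 0.60, Krt18 by 0.43, Spint1 by 0.42 and Cldn3 by 0.37) and 0 rose, against 5 and 1 after quantile normalization. A further 4 of the 11 had positive effects that did not pass: Krt19 (0.36), Cdh1 (0.18), Cldn4 (0.10) and Pax2 (0.07). In the coelomic list 3 of the 8 were positive, also without passing. Among the shared falls, Gata3, a factor of the mesonephric duct, went from 8.21 to 6.91 in WT and from 8.18 to 7.10 in KO (-1.12 ± 0.06). Foxd1, a forkhead factor of renal stroma, went from 8.15 and 8.91 to under the floor (6.35 and 6.83). Gfra3, the artemin receptor, went from 8.37 and 8.71 to under the floor (6.99 and 6.95). Sprr2d, of epithelia, fell by 1.70 ± 0.11, Gadd45g, a stress-signalling protein, by 1.23 ± 0.07, and Kyat3, an aminotransferase, by 1.15 ± 0.08. The summed level of the 11 mesonephros genes was 91.3 and 89.1 in WT and 89.1 and 87.9 in KO on the log2 scale, and its part in the falls was not tested. Of 14 endothelial genes 0 rose and 1 fell (Sox18, by 0.59). Without centring 7 of the coelomic, 8 of the mesonephros and 10 of the endothelial genes fell.

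**Figure D4:**
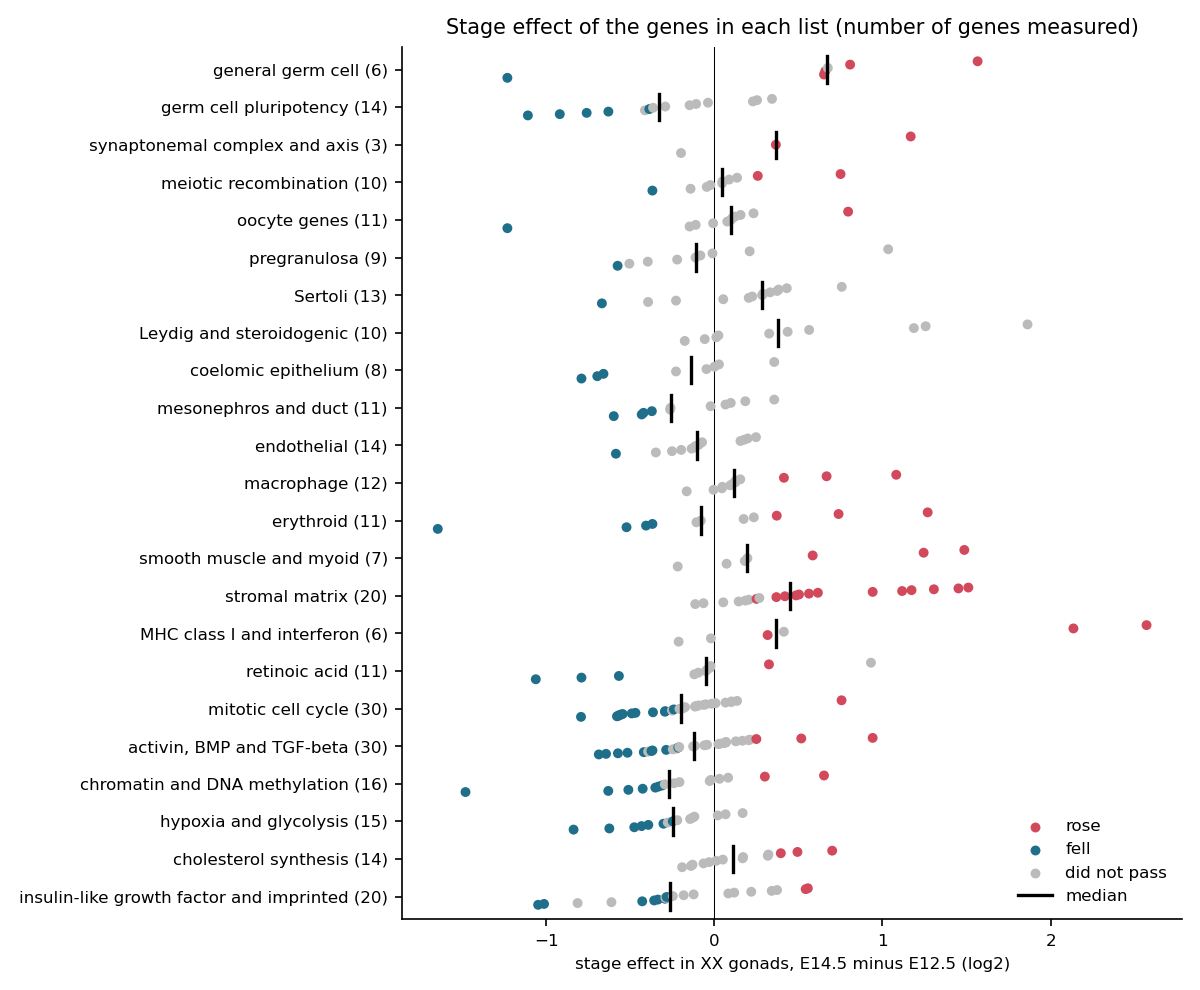
Fitted stage effect (E14.5 minus E12.5, log2, horizontal axis) of each measured gene in 23 gene lists (rows, with the number of genes measured), 1 point per gene, coloured by whether it rose, fell or did not pass limma at an adjusted p of 0.05, with the list median as a black bar. The stromal matrix list holds 13 genes that rose and 0 that fell, the germ cell pluripotency list 5 that fell and 0 that rose.

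Of 9 measured pregranulosa (supporting cell) genes 0 rose and 1 fell, beside 7.63% and 15.1% of all probe sets. With no floor 3 fell and without centring 5. The gene that fell was Nr0b1, an orphan receptor (8.41 and 7.81, 8.09 and 7.54). Wnt4 did not pass (-0.51 ± 0.13, adjusted p = 0.0572), though it did with no floor (adjusted p = 0.0454). Irx3, an Iroquois factor of pregranulosa cells, read 9.68 and 9.92 in WT but 7.10 and 8.92 in KO, so it was 3.55-fold higher at E14.5 in KO and 1.18-fold in WT. Apcdd1, an inhibitor and target of Wnt signals, read 9.38 and 9.86 in WT and 7.81 and 9.07 in KO, and rose in the joint fit (0.87 ± 0.20, adjusted p = 0.0488), though not in a fit to all 8 arrays (adjusted p = 0.189). Agtr2, an angiotensin receptor, read 10.57 and 10.63 in WT and 9.82 and 10.90 in KO. For these 3 genes the KO array at E12.5 was the low one. Fst, an activin-binding protein, read 9.09 and 8.32 in WT and 7.16 and 7.49 in KO, and Msx1, a BMP-responsive homeobox factor, 9.90 and 9.11 in WT and 8.78 and 8.79 in KO. The KO-only fall class held Plbd1 (7.60 and 7.16 in WT, 8.75 and 7.30 in KO, adjusted p = 0.0643) and Nefm, a neurofilament chain (7.45 and 6.80, 8.08 and 6.95), which fell in the joint fit (-0.71 ± 0.16, adjusted p = 0.0495). Their WT pair differences were also negative, -0.44 and -0.39 (-0.65 for Nefm with no floor).

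The WT-only rise class held 7 probe sets, and the WT pair difference was largest for Cyp11a1. This enzyme, which makes the first steroid from cholesterol, read 6.86 and 9.49 in WT and 8.00 and 7.94 in KO. It was at least 5.40-fold higher at E14.5 in WT and level in KO, and did not pass the joint test (adjusted p = 0.214). Star, the cholesterol carrier of mitochondria, read 6.75 and 8.33 in WT and 8.15 and 7.75 in KO. Cyp17a1, which leads to androgens, read 7.39 and 10.43 in WT and 7.51 and 8.20 in KO, and Hsd3b1 6.41 and 8.96 in WT and 6.82 and 7.66 in KO, both partly shared (adjusted p = 0.0841 and 0.0596). Of 10 measured Leydig and steroid genes 0 passed, though 1 rose with no floor, 2 rose after quantile normalization, and 2 rose and 3 fell without centring. The list median was 0.78 in the WT pair and -0.04 in the KO pair. Of 13 Sertoli genes 0 rose and 1 fell (Vnn1, by 0.67), beside 7.63% and 15.1% of all probe sets. The Sertoli medians were 0.48 in the WT pair and -0.03 in the KO pair. The summed log2 level of the 10 Leydig genes was 85.5 and 96.9 in WT at E12.5 and E14.5 and 88.9 and 89.7 in KO, and that of the 13 Sertoli genes 106.9 and 112.9 in WT and 106.6 and 106.0 in KO. Insl3, a hormone of Leydig cells, was under the floor on all 4 XX arrays.

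The other genes of the WT-only rise class were Aldh1a1, a retinaldehyde dehydrogenase (9.69 and 11.50 in WT, 9.76 and 9.82 in KO), Me1, malic enzyme (7.47 and 9.08, 7.45 and 7.77), Aard, a small protein of fetal Sertoli cells (8.51 and 9.93, 8.48 and 8.57), Dppa4, and a second probe set of Ptgds, prostaglandin D synthase. XY arrays at E12.5 read Aldh1a1 at 11.49 and 11.42, Me1 at 9.24 and 9.41 and Aard at 10.65 and 10.67. Taking a probe set as testis-type where the KO XY array exceeded the KO XX array at E12.5 by at least 0.5, arrays that the WT pair does not use, 4 of the 7 (57.1%) were testis-type, against 5 of 32 shared rises (15.6%) and 4.18% of all probe sets. Cyp11a1 and Star were not counted, with differences of 0.08 and -0.14. At E12.5 KO XX gonads read them at 8.00 and 8.15, above 6.86 and 6.75 in WT XX gonads. The measure can thus miss genes that are already high in KO XX gonads. Testis-type transcripts on the WT XX E14.5 array were known from earlier results of these data, so these shares are a description, and the part of XY tissue in the differences was not tested.

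**Figure D5:**
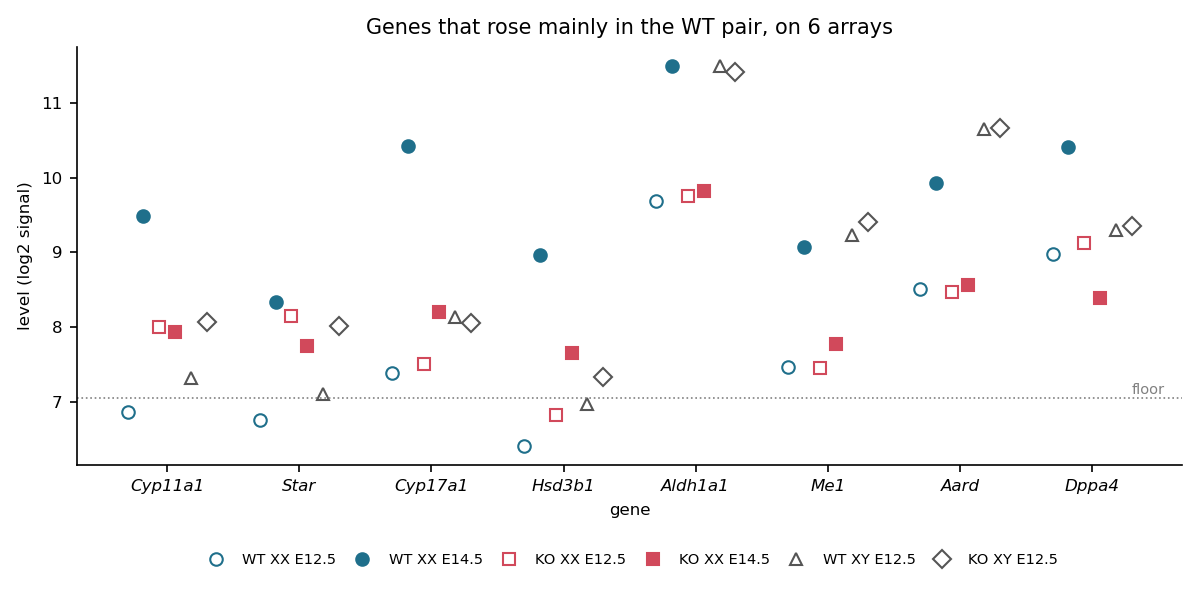
Levels (log2 signal) of 8 genes that differed mainly in the WT pair, on the 4 XX arrays and the 2 XY arrays of E12.5 (triangles WT, diamonds KO), 1 array per point, with the floor of 7.06 dotted. Filled circles (WT XX at E14.5) stand above the other XX arrays in all 8 genes, and near the XY arrays for Aldh1a1 and Me1.

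The 7 probe sets of the WT-only fall class included Phlda2 (9.08 and 7.82 in WT, 7.52 and 7.16 in KO), Fxyd2, a sodium pump subunit (8.78 and 7.45, 7.82 and 7.54), and second sets of Meg3, Grb10 and Igfbp3. Phlda2, Meg3 and Grb10 are imprinted. For Phlda2 and Fxyd2 the WT array at E12.5 was the high one, and neither passed the joint test (adjusted p = 0.0698 and 0.0947).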

How the data were processed

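Gene expression was read in 8 gonad samples, 1 array each, and the 4 XX arrays were analysed. The deposited values are log2 signals; per the submitters' processing notes the authors used MAS5. Its version, scaling and background steps: not given in the sources used here. In the column of the KO XY E12.5 array 14 cells held spreadsheet date numbers (41278 to 41284) and were set to missing. Array medians (7.04 to 7.85 over 8 arrays) were centred on 7.58, values under the 40th percentile (7.06) were set to it, and probe sets above it on at least 1 XX array were kept (7886 of 12488, 66 control sets left out, 6028 genes). A gene's probe set with the highest mean stood for it. In GEO's platform annotation 10833 probe sets name a single gene, 396 name more and 1193 name none, and the 10817 single genes matched in the RefSeq table kept their symbol.

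limma 3.58.1 in R 4.3.3 fitted genotype plus stage with an intensity trend (1 residual and 3.21 prior degrees of freedom), two-sided, with Benjamini-Hochberg adjustment. Errors are SEs. The p-values set the stage effect against how far the 2 genotype pairs differ, moderated by the spread of the other probe sets. Each group held 1 sample, so they hold no measure of the spread within a group, and the number of arrays limits precision. On simulated data 90% to 92% of changes of 0.5 to 2 (log2) were recovered, with 12 false calls among 7686. The simulation drew independent normal noise at the moderated spread of the fit. It put the same change in both genotypes, changed few probe sets and held no batch that went with stage. It checks the fitting and does not give the power or error rate on the real arrays. Named genes were the markers, Wnt4, Xist and Eif2s3y, up to 15 genes per shared class and 8 per class of 1 genotype, the 5 largest and all called genes of each of 34 lists, and the 15 largest calls each way; a few more are said to complete a class, were gathered after values were seen, or are list members that did not pass. The lists and members were chosen with earlier results of these data known.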

Additional observations from a re-analysis of the deposited data

Results flagged for a closer look

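Of the 4 markers, Stra8, Stag3 and Ddx4 stood out because their stage effect differed between XX and XY gonads in a test of that difference (limma, all 8 arrays, Benjamini-Hochberg adjustment). The XX minus XY difference was 1.853 for Stra8 (adjusted p = 0.00181), 0.936 for Stag3 (adjusted p = 0.000708) and 0.634 for Ddx4 (adjusted p = 0.00488), beside 36.0% of all probe sets that passed in the same direction. The XY arrays at E14.5 stood apart from the XY arrays at E12.5 as well as from the XX arrays. A difference between arrays cannot be told apart from these effects. The stage effect in XY gonads was 0.45 for Stag3 and 0.93 for Ddx4. For Stra8 it was 0.23 with the floor, under which its XY values lay except 7.51 in KO XY gonads at E14.5. Figla differed by 0.796, but it was at the floor on all XY arrays and both XX arrays of E12.5, so its values allow no test of that difference.

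For a further 7 genes the WT and KO pair differences had opposite signs, which was not tested. For Msx1 (0.0055 in KO), Cyp11a1 (-0.059 in KO) and Utf1 (0.08 in WT) the smaller of them lay near 0. The WT minus KO difference was 2.49 for Cyp11a1, 2.16 for Dppa4, 1.68 for Star and 0.98 for Utf1, each higher in the WT pair. It was -1.10 for Fst, -1.05 for Xist and -0.80 for Msx1, each lower in the WT pair. In 6 of these genes the WT pair was the larger in size, and in Utf1 the KO pair (-0.90 against 0.08).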

How the results depend on the processing

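The number of probe sets that rose was 969 with a floor at the 25th percentile, 951 after quantile normalization, 397 with no genotype term, 283 without centring and 0 with no filter on low values (2549 unadjusted p under 0.05), where sets at the floor on all XX arrays entered the fit. The number that fell was 710 with no genotype term, 5023 without centring and 0 with no filter. Leaving out each XX array in turn, in a fit to all 8 arrays chosen after seeing the data, ended all calls. The error of that fit came from the XY arrays alone, so this does not show how far the calls depend on either pair. Shared rises numbered 51 with the lower floor, 59 with no floor, 20 without centring and 113 at 1.5-fold, and shared falls 17, 18, 45 and 137. WT-only rises numbered 11 with no floor and 3 (Cyp11a1, Star and Dppa4) without testis-type probe sets. WT-only falls numbered 12 with the lower floor or no floor, 16 without centring and 3 with under 0.25 in the other genotype, and KO-only falls 4, 5, 5 and 0. Of the 101 named genes that passed, 1 changed sign in any of these fits: Mfap2, at -0.00071 without centring, as did Gdf9 (-0.019), which had not passed. Most of the fits could not turn a sign. The fits to all 8 arrays and with no trend, no genotype term or another filter return the same effect. Leaving out 1 array could not either, since all called probe sets had the same sign in both pairs. Only a change of floor, centring, normalization or probe sets could do so. Leaving out 1 XX array leaves only the pair of the other genotype, so the effect is then that pair's difference. It ranged from -0.61 to 0.44 for Xist, -0.059 to 2.43 for Cyp11a1, -0.41 to 1.28 for Star, -0.74 to 1.42 for Dppa4, -0.77 to 0.33 for Fst, -0.80 to 0.0055 for Msx1 and -0.90 to 0.078 for Utf1. The sign turned without either WT array or, for Utf1, without either KO array. This restates the opposite signs of the pairs given above and is no further result. Of the 101, quantile normalization ended 2 calls (Rrm1 and Id2), the fit to all 8 arrays 4 (Id2, Hbb-y, Krt18 and Apcdd1), no trend 3 and no genotype term 19, and Dppa3 passed under 6 alternatives. The causes were not tested. No paired analysis was possible because every group has only replicate number 1, so that number cannot serve as a block. Stage was compared within genotype through the genotype term, and the fit without that term is given above. Signals under the floor are not ordered, and 4 arrays limit all precision.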
